A study of Mus musculus with 10 samples.

Results

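The genes described here are 10 genes of microglia and of complement C1q, namely Cx3cr1, P2ry12, Tmem119, Csf1r, C1qa, C1qb, C1qc, Trem2, Tyrobp and Cd68. They were taken by symbol as 10 of the 24982 rows of the count table, and all 10 passed the low-count filter, as did 14867 rows in all. RNA was sequenced from the micro-dissected dentate gyrus, the granule neuron field of the hippocampus, of 10 male mice aged 10 weeks on the C57BL/6 background. Of these, 5 carried a global Fndc5 knock-out (KO) and 5 were wild type (WT). Fndc5 encodes the membrane protein from which the hormone irisin is released, and all of the tissue's cells carry the disrupted gene. No treatment is given for either genotype.

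Microglia are the resident macrophages of the brain. They survive on signals through the receptor CSF1R, survey the tissue through the fractalkine receptor CX3CR1 and the ADP receptor P2RY12, and engulf debris and synapses. C1q, the recognition molecule that starts the classical complement pathway, is built from A, B and C chains of separate genes, and microglia are its main source in the brain, where it tags synapses for removal. TREM2 is a lipid-sensing receptor of microglia that signals through the adaptor TYROBP (DAP12), and CD68 is a lysosomal glycoprotein that rises in phagocytic macrophages. In whole tissue, fewer microglia and less RNA per microglial cell cannot be told apart.

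Depth was 26226375 to 43802079 counts per library. Fndc5 was lower in every KO library, at 51.3 ± 4.27 CPM (TMM-scaled counts per 1000000 counts) in KO mice and 75.3 ± 4.60 CPM in WT mice (SD, n = 5 each; edgeR adjusted p 0.000495). The KO libraries held Fndc5 reads, and counts per gene do not show from which exons. Defining microglia markers were well covered: besides the 10 genes, Siglech had 264 to 434 reads per library. Markers of blood leukocytes were near 0, with 0 of 15 past the filter and a summed level of 0.723 to 1.45 CPM in KO libraries and 0.573 to 1.15 CPM in WT libraries. Of 12 markers of border-associated macrophages, 5 passed the filter, with summed levels of 16.6 to 21.0 CPM in KO and 16.3 to 21.7 CPM in WT libraries. Stab1 gave most of that sum, at 14.3 CPM in KO and 13.9 CPM in WT mice, while Cd209f had at most 2 reads in a library.

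The genotype comparison asks whether microglial transcripts of the dentate gyrus differ when Fndc5 is disrupted. No difference passed for any of the 10 genes. In edgeR 0 of 10 had an adjusted p under 0.05, against 1 of 14867 genes (0.00673%), and the lowest adjusted p among the 10 was 0.806. An unadjusted p under 0.05 was found for 0 of 10, against 6.29% of all genes. At an adjusted p under 0.05 every alternative also called 0 of 10. The share of all genes called was 0.0202% with DESeq2, 0.00673% with limma-voom and with upper-quartile scaling, 0.0538% with the replicate block, 0.00504% with no low-count filter and 0.00737% with a filter of 1 CPM. With 1 library left out it was 0.00668%, 0.00669%, 0.0067%, 0.0134% or 0.0201%. In 7 of the 10 genes the value was higher in KO, against 50.7% of all genes, and the median log2 fold change was 0.04 over the 10 genes and 0.0016 over all genes tested. The ranges of KO and WT libraries overlapped for all 10, and 0.895% of all genes had ranges that did not overlap.

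The size of difference that remained possible was small. Log2 fold changes lay between -0.15 (Tyrobp) and 0.10 (Cd68). The 95% intervals of 9 of the 10 genes excluded a change of 1.25-fold either way, and those of 8 excluded 1.2-fold. Among all genes tested, 74.1% had an interval within 1.25-fold. The exception was Tyrobp, whose interval ran from 0.785-fold to 1.04-fold. The upper end for any of the 10 genes was 1.22-fold, for Cd68.

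**Figure D1:**
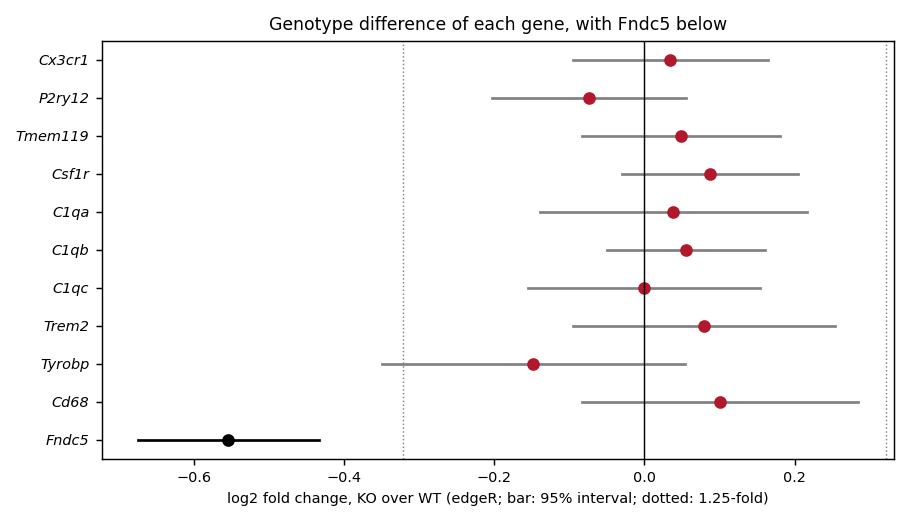
Log2 fold change of KO over WT for each gene (points) with its 95% interval from edgeR (bars), Fndc5 at the bottom in black, and dotted lines at 1.25-fold. All 10 intervals of the microglia and C1q genes cross 0, while that of Fndc5 runs from -0.67 to -0.43.

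Among the surveillance receptors, Cx3cr1 lies on chromosome 9 from 119901616 to 120069879 (GRCm38, minus strand) and binds fractalkine, which neurons display. Its level was 47.5, 49.2, 39.7, 49.4 and 47.9 CPM in KO mice 1 to 5, against 41.8, 48.6, 48.1, 43.3 and 46.1 CPM in WT mice 1 to 5. The lowest value of all 10 libraries was that of KO mouse 3 and the highest that of KO mouse 4, so the WT range lay inside the KO range. On the log2 scale KO differed from WT by 0.03 (SE 0.061; edgeR adjusted p 0.940), with a 95% interval from -0.10 to 0.16.

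P2ry12 (chromosome 3, 59216272 to 59262871, minus strand) encodes the receptor that draws microglial processes towards ADP and ATP. It had 26.8, 26.2, 22.7, 26.4 and 25.9 CPM in KO mice, against 24.5, 29.9, 27.7, 27.1 and 25.5 CPM in WT mice. All 5 KO libraries were below the WT mean of 26.9 CPM, and only KO mouse 3 was below every WT library. This gave -0.07 for KO over WT in log2 (SE 0.061; edgeR adjusted p 0.857) and a 95% interval from -0.20 to 0.06. KO mouse 3 was thus the lowest library for Cx3cr1 and P2ry12 alike.

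Csf1r (chromosome 18, 61100598 to 61132149, plus strand), the receptor for CSF1 and IL-34 on which microglia depend, had the most reads of the 10 genes, with 2103 to 3321 per library. Its level was 89.4, 80.2, 70.8, 87.2 and 80.9 CPM in KO mice, against 74.2, 75.8, 75.5, 75.5 and 83.4 CPM in WT mice. KO mice 1 and 4 were above every WT library and KO mouse 3 was below every one. KO over WT came to 0.09 in log2 (SE 0.056; edgeR adjusted p 0.806), and the 95% interval ran from -0.03 to 0.21. Exons of Hmgxb3 on the other strand cover 15.1% of the annotated exon bases of Csf1r, and the strand setting of the counting is not given in the sources used here, so reads from that stretch are uncertain.

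Tmem119 (chromosome 5, 113793729 to 113800516, minus strand) encodes a membrane protein that separates microglia from other macrophages. It had 17.2, 15.5, 15.4, 15.5 and 15.4 CPM in KO mice, against 14.7, 14.4, 14.9, 15.3 and 17.3 CPM in WT mice. The highest values were those of KO mouse 1 and WT mouse 5, and the other 8 libraries stayed within 14.4 to 15.5 CPM. Its log2 ratio of KO to WT was 0.05 (SE 0.062; edgeR adjusted p 0.907), with a 95% interval from -0.08 to 0.18.

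The C1q chains are encoded side by side on the minus strand of chromosome 4, with C1qb from 136880129 to 136886187, C1qc from 136889804 to 136893065 and C1qa from 136895917 to 136898803. This cluster of 18.7 kb lies 7.74 Mb from Fndc5 on the same chromosome. C1qa had 29.2, 26.7, 26.3, 29.5 and 30.5 CPM in KO mice, against 26.0, 25.1, 25.3, 26.8 and 35.6 CPM in WT mice. C1qb had 28.1, 26.4, 27.2, 29.0 and 28.8 CPM in KO mice, against 26.7, 27.2, 25.4, 25.8 and 29.1 CPM in WT mice. C1qc had 28.0, 24.6, 26.7, 28.5 and 30.3 CPM in KO mice, against 27.3, 25.5, 24.8, 27.8 and 32.9 CPM in WT mice. WT mouse 5 had the highest value of all 10 libraries for each of the 3 chains.

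The log2 fold changes of the chains were 0.04 for C1qa (SE 0.084, adjusted p 0.951), 0.06 for C1qb (SE 0.050, adjusted p 0.866) and -0.00040 for C1qc (SE 0.073, adjusted p 0.999), all from edgeR. Their 95% intervals were -0.14 to 0.22, -0.05 to 0.16 and -0.15 to 0.15. Without WT mouse 5 the log2 fold change was 0.14 for C1qa (edgeR unadjusted p 0.0216, adjusted p 0.563), 0.09 for C1qb and 0.07 for C1qc, with none past the threshold. The lowest values came without WT mouse 3, at 0.0050 for C1qa and 0.03 for C1qb. C1qc had values of either sign near 0 as single libraries were left out, from -0.039 to 0.067. The summed C1q level was 84.0 ± 4.88 CPM in KO mice and 82.3 ± 8.79 CPM in WT mice (SD, n = 5 each), or 77.8 to 89.7 CPM in KO libraries and 75.5 to 97.6 CPM in WT libraries.

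The shares of the chains were close between genotypes. Per kb of transcript, C1qa made up 36.0 ± 0.633% of the C1q sum in KO mice and 35.7 ± 1.79% in WT mice, C1qb 33.8 ± 0.742% in KO and 33.4 ± 1.99% in WT, and C1qc 30.2 ± 0.772% in KO and 30.9 ± 0.740% in WT (SD, n = 5 each). WT mouse 5 stood apart, since C1qa made up 38.8% and C1qb 30.3% of the sum there. The other WT libraries had 34.3% to 35.6% for C1qa and 32.7% to 35.6% for C1qb.

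Trem2 (chromosome 17, 48346401 to 48354147, plus strand) had few reads, 150 to 260 per library. Its level was 5.88, 5.91, 5.85, 6.26 and 6.08 CPM in KO mice, against 5.11, 5.24, 5.91, 5.79 and 6.32 CPM in WT mice. All 5 KO libraries were above the WT mean of 5.67 CPM and all 5 were inside the WT range. For KO over WT the log2 value was 0.08 (SE 0.082; edgeR adjusted p 0.884), and its 95% interval went from -0.10 to 0.25.

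Tyrobp (chromosome 7, 30413760 to 30417585, plus strand), is the adaptor through which TREM2 signals. It had 5.53, 6.70, 6.59, 6.50 and 4.89 CPM in KO mice, against 6.81, 6.53, 6.14, 7.01 and 7.17 CPM in WT mice. KO mice 1 and 5 were below every WT library, KO mice 2, 3 and 4 were among them, and all 5 KO libraries were below the WT mean of 6.73 CPM. In log2, KO over WT was -0.15 (SE 0.095; edgeR adjusted p 0.806), with a 95% interval from -0.35 to 0.05 and an exact permutation p of 0.127, the lowest of the 10 genes. Tyrobp had 127 to 270 reads per library, and counting alone gives a coefficient of variation of 7.18% at that depth, against 13.2% seen among KO mice and 6.05% among WT mice.

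The KO over WT values of receptor and adaptor had opposite signs, with neither difference past the threshold. The ratio of Trem2 to Tyrobp, both per kb, was 0.523 ± 0.0783 in KO mice and 0.438 ± 0.0421 in WT mice (SD, n = 5 each), with ranges of 0.457 to 0.645 in KO and 0.389 to 0.499 in WT libraries. The highest ratios were those of KO mice 5 (0.645) and 1 (0.551), the libraries with the least Tyrobp.

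Cd68 (chromosome 11, 69664213 to 69666153, minus strand), the phagocytic lysosome marker, had 7.12, 6.24, 5.99, 6.03 and 6.62 CPM in KO mice, against 5.38, 5.66, 5.78, 6.67 and 6.39 CPM in WT mice. All 5 KO libraries were above the WT mean of 5.98 CPM, and only KO mouse 1 was above every WT library. Its KO over WT value in log2 was 0.10 (SE 0.087; edgeR adjusted p 0.858), with a 95% interval from -0.08 to 0.29. At 162 to 254 reads per library, counting alone gives a coefficient of variation of 7.25%, near the 7.40% seen among KO mice and the 8.96% among WT mice. Set against P2ry12, a gene of resting microglia, Cd68 had a ratio per kb of 0.477 ± 0.0319 in KO mice and 0.425 ± 0.0490 in WT mice (SD, n = 5 each). The KO ratios of 0.435 to 0.507 overlapped the WT ratios of 0.361 to 0.477.

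Leaving out single libraries moved each of these small differences, most by more than 1.5 times, with no gene past the threshold in any case. Without WT mouse 5 the KO over WT value in log2 was 0.09 for Tmem119 and 0.12 for Trem2, and without KO mouse 3 it was 0.09 for Cx3cr1, 0.14 for Csf1r and -0.03 for P2ry12. Csf1r then had an unadjusted p of 0.0112 in edgeR (adjusted p 0.984). Over all 10 omissions the lowest and highest values were 0.0044 (without WT mouse 1) and 0.09 for Cx3cr1, -0.11 (without WT mouse 1) and -0.03 for P2ry12, 0.05 (without KO mouse 1) and 0.14 for Csf1r, and 0.02 (without KO mouse 1) and 0.09 for Tmem119. They were 0.04 (without WT mouse 1) and 0.12 for Trem2, -0.19 (without KO mouse 2) and -0.08 (without KO mouse 5) for Tyrobp, and 0.06 (without KO mouse 1) and 0.14 (without WT mouse 4) for Cd68.

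**Figure D2:**
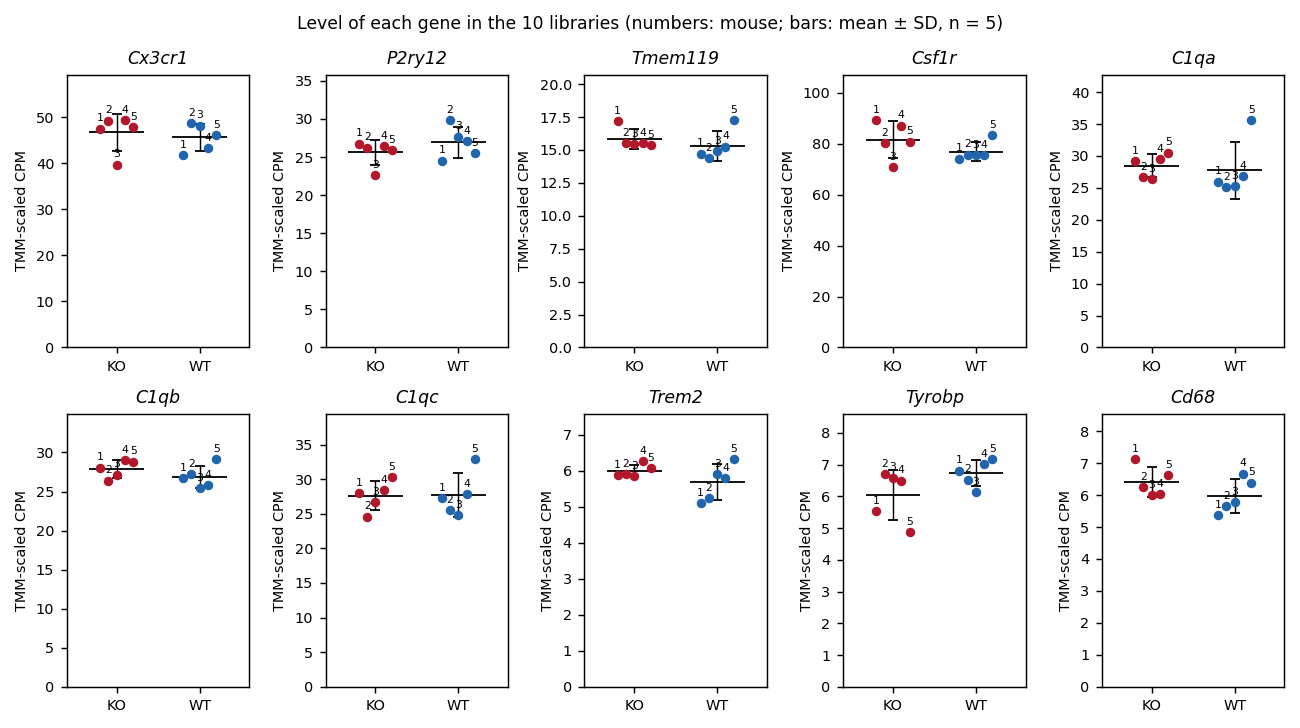
TMM-scaled CPM (y axis, from 0) of each gene in KO and WT libraries, with each point numbered by mouse and bars for the mean and SD of 5 mice. KO and WT points overlap in every panel, WT mouse 5 is the highest for C1qa (35.6 CPM) and C1qc (32.9 CPM), and KO mice 1 and 5 are the lowest for Tyrobp (5.53 and 4.89 CPM).

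Scaled by transcript length, the C1q chains had the highest levels of the 10 genes and Cd68 the lowest. Mean levels over the 10 libraries were 27.0 CPM per kb for C1qa, 25.2 for C1qb, 23.0 for C1qc and 16.9 for Csf1r. Below them came Tyrobp at 11.3 CPM per kb, P2ry12 at 11.2 and Cx3cr1 at 10.3, then Tmem119 at 6.94, Trem2 at 5.36 and Cd68 at 5.03. The ranges of neighbours in this order did not all separate. The ranges over libraries overlapped within the C1q chains, within the group of Tyrobp, P2ry12 and Cx3cr1, and between Trem2 and Cd68. Compared within each library, P2ry12 was above Cx3cr1 in all 10, C1qa above C1qb in 9 and C1qb above C1qc in 9. Trem2 was above Cd68 in 8 libraries and Tyrobp above P2ry12 in 6. With the longest principal transcripts, the ranges did not overlap between C1qc and Csf1r, Csf1r and Tyrobp, Cx3cr1 and Tmem119, or Tmem119 and Trem2.

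The order was the same by genotype except for Tyrobp and P2ry12. In KO mice P2ry12 had 10.9 CPM per kb and Tyrobp 10.7, while in WT mice P2ry12 had 11.5 and Tyrobp 11.9. C1qa had 27.4 ± 1.75 CPM per kb in KO mice and 26.7 ± 4.28 in WT mice, and Cd68 had 5.20 ± 0.385 in KO and 4.86 ± 0.435 in WT (SD, n = 5 each). The transcript model matters for this order and for the gap between C1qc and Csf1r. With the shortest principal transcripts Cx3cr1 was at 14.6 CPM per kb and P2ry12 at 12.5, which puts both above Tyrobp. Csf1r was then at 20.5 CPM per kb and C1qc at 23.0. With the union of all annotated exons, which holds a retained-intron transcript of Trem2, Trem2 was at 1.18 CPM per kb and C1qc at 14.3. Csf1r was then at 13.7 CPM per kb, close to C1qc. These settings were chosen after the values were seen.

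**Figure D3:**
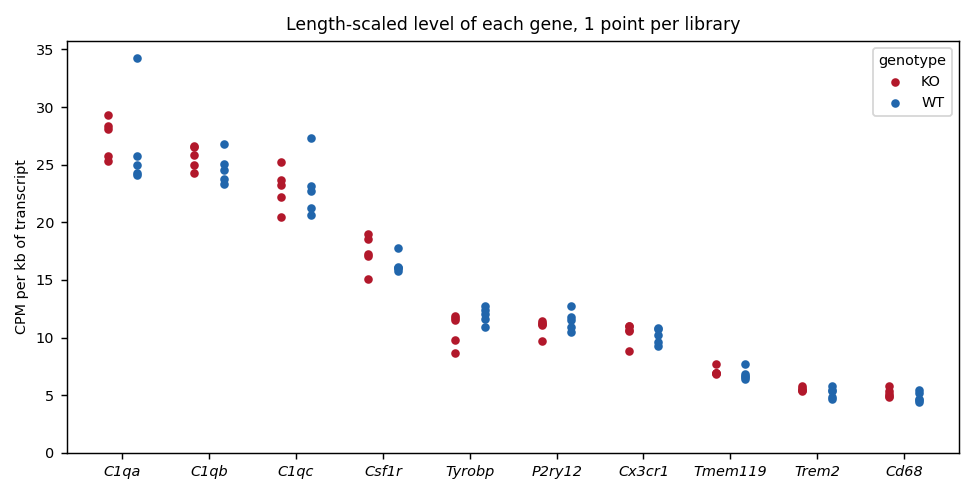
CPM per kb of the longest principal transcript (y axis, from 0) for the 10 genes in order of their mean, with 1 point per library and KO left of WT. The C1q chains lie between 20.5 and 34.3, and Trem2 and Cd68 between 4.38 and 5.80.

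The starts of these genes are shown because their levels are compared side by side and many macrophage genes are known to be driven by PU.1, an ETS factor that binds purine-rich sites. Its gene Spi1 had 2.11 CPM in KO mice and 2.12 CPM in WT mice (log2 fold change -0.0092, edgeR adjusted p 0.994). RefSeq promoter windows (GRCm38.p6) matched 6 of the 10 genes, Cx3cr1, P2ry12, C1qb, C1qc, Trem2 and Cd68. The core motif GAGGAA, searched on both strands (reverse complement TTCCTC) in the 250 bases before the RefSeq start, was found in 4 of the 6, against 23.3% of 32851 windows of that length. A match of these letters is a description and not a bound site. The 4 stretches follow on the strand of the gene, with the motif in capitals.
C1qb, chr4:136886201-136886450, minus strand: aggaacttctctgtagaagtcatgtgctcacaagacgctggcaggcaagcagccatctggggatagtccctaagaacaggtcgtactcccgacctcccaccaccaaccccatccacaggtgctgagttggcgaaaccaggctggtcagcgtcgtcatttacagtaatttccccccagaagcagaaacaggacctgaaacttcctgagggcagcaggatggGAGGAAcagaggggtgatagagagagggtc
C1qc, chr4:136892915-136893164, minus strand: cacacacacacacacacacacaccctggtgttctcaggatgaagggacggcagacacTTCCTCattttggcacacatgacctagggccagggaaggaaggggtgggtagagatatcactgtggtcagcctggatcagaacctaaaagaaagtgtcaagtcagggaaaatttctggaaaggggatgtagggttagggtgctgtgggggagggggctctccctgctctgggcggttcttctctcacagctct
Trem2, chr17:48346151-48346400, plus strand: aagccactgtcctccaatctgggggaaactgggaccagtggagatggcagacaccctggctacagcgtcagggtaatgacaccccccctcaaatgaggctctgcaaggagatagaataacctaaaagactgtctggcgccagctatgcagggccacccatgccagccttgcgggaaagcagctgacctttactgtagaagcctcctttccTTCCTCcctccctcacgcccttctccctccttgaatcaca
Cd68, chr11:69666171-69666420, minus strand: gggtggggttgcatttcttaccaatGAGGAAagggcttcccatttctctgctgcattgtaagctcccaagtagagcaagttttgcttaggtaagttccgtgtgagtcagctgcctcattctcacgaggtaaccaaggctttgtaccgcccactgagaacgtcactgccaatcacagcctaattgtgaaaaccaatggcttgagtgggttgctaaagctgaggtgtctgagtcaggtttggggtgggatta
Counted from the RefSeq start, the first base of the match lies 30 bases upstream in C1qb, 193 in C1qc, 40 in Trem2 and 225 in Cd68. The GENCODE starts used for the gene positions above differ from these for C1qb, C1qc and Cd68. That of C1qc, at 136893065, lies inside its printed stretch, so part of that stretch is within the annotated gene. The neighbouring C1qb and C1qc hold it on opposite strands, and how their distances compare depends on which start is used.

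Across mice, the C1q chains varied together and Cx3cr1 varied with P2ry12. Of 45 pairs of genes, 33 had a positive Pearson correlation over the 10 libraries with genotype means removed (median r 0.341), and 4 pairs passed after Benjamini-Hochberg adjustment over the 45 pairs. The permutations shuffled values over all libraries, not within genotype. Removing the genotype means leaves fewer than 10 independent values, so the permutation p-values here and below can be too small. Adjusted values near 0.05 are therefore uncertain. C1qa with C1qc had r = 0.920 (permutation p 6.0e-05, adjusted 0.00270) and a Spearman rho of 0.915 (permutation p 0.000500, adjusted 0.0225). C1qb with C1qc had r = 0.844 (permutation p 0.00205, adjusted 0.0325) and rho 0.818 (permutation p 0.00579, adjusted 0.0868). C1qa with C1qb had r = 0.819 (permutation p 0.00292, adjusted 0.0328) and rho 0.673 (permutation p 0.0382, adjusted 0.320). Cx3cr1 with P2ry12 had r = 0.859 (permutation p 0.00217, adjusted 0.0325) and rho 0.867 (permutation p 0.00207, adjusted 0.0466).

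These relations were weaker with fewer libraries. Without the 2 libraries farthest from the median of the first gene, r was 0.782 for C1qa with C1qc (exact permutation p 0.0248 over 8 libraries) and 0.639 for C1qb with C1qc (exact permutation p 0.0863). It was 0.556 for C1qa with C1qb (exact permutation p 0.162) and 0.511 for Cx3cr1 with P2ry12 (exact permutation p 0.179). The libraries left out were KO mouse 3 and WT mouse 1 for the last pair. For C1qb with C1qa or C1qc they were WT mouse 5 with KO mouse 5 or WT mouse 3. Leaving out the farthest values narrows the range of the first gene, which can lower r by itself. The lower values therefore cannot show whether a relation rests on those libraries. Each genotype alone has 5 mice, too few for a correlation within it.

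No pair across these groups passed after adjustment. P2ry12 had r = -0.144 with C1qa (permutation p 0.685, adjusted 0.898; rho -0.188, permutation p 0.607) and -0.284 with C1qc (permutation p 0.430, adjusted 0.716; rho -0.152, permutation p 0.682). Leaving out the 2 libraries farthest from the median of the first gene changed many of these values. Over the 8 libraries left, 8 of the 45 pairs had an exact permutation p under 0.05, not adjusted for the 45 pairs, and these included C1qa with C1qc. Without KO mouse 3 and WT mouse 1, r was -0.873 for Cx3cr1 with Cd68 (exact permutation p 0.000719, against r = 0.144 over all libraries), -0.904 for P2ry12 with Trem2 (exact permutation p 0.0103, against 0.0096) and -0.778 for P2ry12 with C1qa (exact permutation p 0.0431). Without KO mice 1 and 3, r was 0.810 for Csf1r with C1qa (exact permutation p 0.0223, against 0.644), 0.761 for Csf1r with C1qb (exact permutation p 0.0181, against 0.579) and 0.727 for Csf1r with Trem2 (exact permutation p 0.0415, against 0.454). Without KO mouse 1 and WT mouse 5, r was 0.709 for Tmem119 with Trem2 (exact permutation p 0.0424, against 0.592). Tyrobp had a negative r with 7 of the other 9 genes, down to -0.364 with P2ry12 (permutation p 0.304, adjusted 0.595; rho -0.345, permutation p 0.331).

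**Figure D4:**
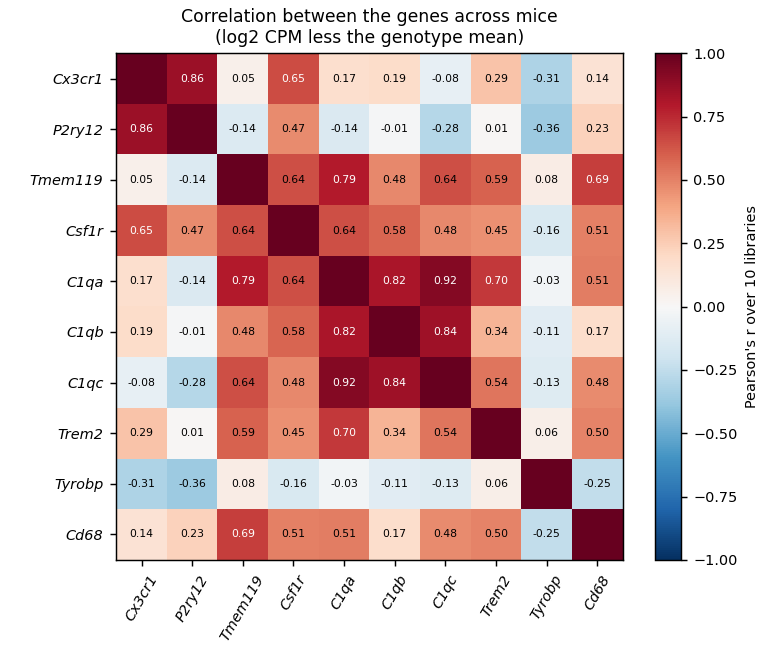
Pearson's r between each pair of genes over 10 libraries, on log2 CPM less the genotype mean, with red for positive and blue for negative. The C1q chains form a block with r between 0.82 and 0.92, Cx3cr1 and P2ry12 a pair at 0.86, and Tyrobp has values from -0.36 to 0.08.

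The genes whose profile over the 10 libraries was most like the mean profile of the 10 genes were Pbxip1 (r = 0.964), Rmc1 (0.940), Ap1m1 (0.937), Naaa (0.931), Shc1 (0.907), Stag3 (0.895), Rgp1 (0.895) and Acsl6 (0.892), chosen among 12949 genes for this likeness. None is in a list used here. The median r to that profile was 0.542 over 22 other homeostatic microglia genes and 0.540 over 8 oligodendrocyte, 0.537 over 6 meningeal and choroid plexus, 0.460 over 8 astrocyte and 0.127 over 8 granule neuron markers, with -0.013 over all genes compared. The profile was highest in WT mouse 5 (0.133 on the log2 scale above its genotype mean) and lowest in KO mouse 3 (-0.082) and WT mouse 1 (-0.073). Whether the amount of glia in the dissected tissue moves this profile was not tested.

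Other microglia genes also showed no call. For the lists that follow, 6.29% of all genes tested had an unadjusted p under 0.05 in edgeR. Of 23 further homeostatic genes, 8 were higher and 15 lower in KO, with a median log2 fold change of -0.0073, 0 past the threshold in edgeR and 1 at an unadjusted p under 0.05. That gene was Gpr34, a lysophospholipid receptor, at 5.55 CPM in KO mice and 6.76 CPM in WT mice (log2 fold change -0.29, SE 0.11, edgeR adjusted p 0.788). Ptprc, the pan-leukocyte phosphatase CD45, had -0.37 (SE 0.19, edgeR adjusted p 0.789) and Fcer1g, another adaptor with the signalling motif of TYROBP, had -0.15 (SE 0.090, edgeR adjusted p 0.800). Sall1, Siglech, Ctss and Itgam were among those near 0, between -0.0073 and 0.01, while Cd33 had -0.17 and Laptm5 0.08.

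Genes of activated or disease-associated microglia were 9 higher and 7 lower of 16 tested (median 0.0080), with 0 past the threshold in edgeR and 1 at an unadjusted p under 0.05. Apoe, which astrocytes also make in quantity, was at 1007 CPM in KO mice and 939 CPM in WT mice (log2 fold change 0.10, SE 0.035, edgeR adjusted p 0.788). Gpnmb had -0.22 (SE 0.11) and Igf1 -0.18 (SE 0.095), both with an edgeR adjusted p of 0.789. The genes that mark this state most closely were near the limit of detection: Itgax had 6 to 13 reads per library, Clec7a 3 to 14 and Cst7 1 to 10, and these did not pass the filter.

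Of 10 tested complement components and receptors other than C1q, 3 were higher and 7 lower in KO (median -0.06), with 0 past the threshold in edgeR and 0 at an unadjusted p under 0.05. The proteases that assemble with C1q were low, with C1ra at 1.19 CPM in KO and 1.29 CPM in WT mice and C1s1 at 0.770 CPM in KO and 0.831 CPM in WT mice. C4b, the next component, was at 20.4 CPM in KO and 20.4 CPM in WT mice, and C3, the central component, had 2 to 17 reads per library and did not pass the filter. Itgam, a subunit of the C3 receptor of microglia, was at 21.9 CPM in KO and 22.0 CPM in WT mice. Cr1l, a complement regulator of rodents, had the smallest p of this list (log2 fold change -0.10, SE 0.060, edgeR adjusted p 0.800), followed by Masp1 (-0.09, SE 0.11) and C3ar1 (0.13, SE 0.20). C9 and Cfd had 0 reads in every library.

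Complement regulators and synaptic proteins that bind C1q were 6 higher and 10 lower of 16 tested (median -0.02), with 0 past the threshold in edgeR and 1 at an unadjusted p under 0.05. That gene was Nptx2, a neuronal pentraxin induced by activity, at 11.8 to 14.1 CPM in KO and 11.4 to 20.3 CPM in WT mice (log2 fold change -0.32, SE 0.11, edgeR adjusted p 0.788). Clu had 0.08 (SE 0.040) and Vtn 0.10 (SE 0.052), both with an edgeR adjusted p of 0.789. Susd4, Csmd1 and Csmd2, complement inhibitors of neurons, lay at 0.05, -0.04 and -0.07.

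The ligand genes of CX3CR1 and CSF1R were close between genotypes, with Cx3cl1 far above Il34 and Csf1. Cx3cl1, the fractalkine gene, was at 601 CPM in KO and 591 CPM in WT mice (log2 fold change 0.02), Il34 at 31.8 CPM in KO and 31.2 CPM in WT mice (0.03), and Csf1 at 46.4 CPM in KO and 43.2 CPM in WT mice (log2 fold change 0.10, SE 0.057, edgeR adjusted p 0.800). Of 14 tested ligands and signalling partners, 7 were higher and 7 lower (median 0.0098), with 0 past the threshold in edgeR and 1 at an unadjusted p under 0.05. That was Plcg2, a phospholipase downstream of TREM2, at 14.4 CPM in KO and 12.9 CPM in WT mice (log2 fold change 0.16, SE 0.071, edgeR adjusted p 0.788). Gnai2, a G protein subunit used by P2RY12 and CX3CR1, had 0.05 (SE 0.034).

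Lysosome and phagocytosis genes were 11 higher and 7 lower of 18 tested (median 0.0090), with 0 past the threshold in edgeR and 2 at an unadjusted p under 0.05. These were Lamp2, a lysosomal membrane protein, at -0.14 (SE 0.053), and Mfge8, a bridging factor for apoptotic cells, at 0.09 (SE 0.041), each with an edgeR adjusted p of 0.788. Axl, a receptor for such bridging factors, had 0.08 (SE 0.046). Border-associated macrophage markers were 2 higher and 3 lower of 5 tested (median -0.07), with Stab1 at 0.04, Mrc1 at -0.13 (SE 0.26) and Cd163 at -0.13 (SE 0.30), and none at an unadjusted p under 0.05.

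Markers of the other cell types of the tissue were also close between genotypes, with 0 past the threshold in edgeR in each list. The list median was -0.0080 for 8 astrocyte, 0.02 for 8 oligodendrocyte, -0.03 for 8 endothelial and mural, 0.03 for 8 granule neuron and 0.06 for 7 meningeal and choroid plexus markers. At an unadjusted p under 0.05 in edgeR, found for 6.29% of all genes, were Ntsr2 (0.11, SE 0.043), Lct (0.12, SE 0.052), Dsp (0.16, SE 0.074) and Lum (0.43, SE 0.15). Of the genes next in p, Aqp4 had -0.07, Gfap -0.04, Mog 0.15, Ugt8a -0.14, Rgs5 -0.07, Slco1a4 -0.07, C1ql3 -0.05, Kl 0.08 and Dcn -0.23.

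**Figure D5:**
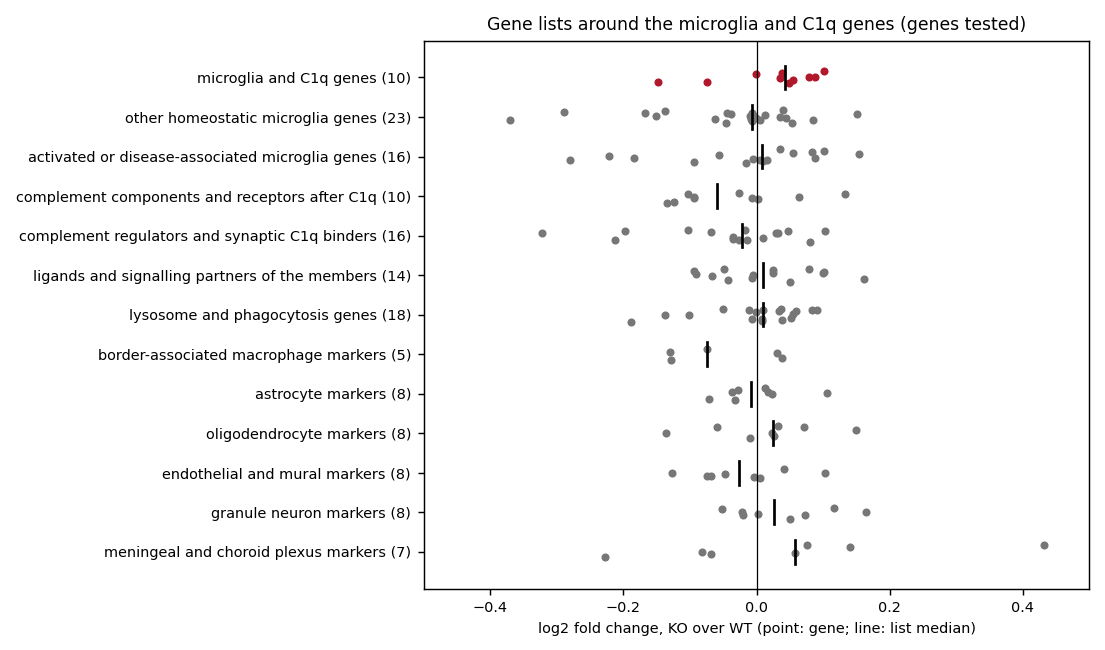
Log2 fold change of KO over WT (x axis) for each tested gene of the microglia and C1q genes (red) and of the lists around them (grey), with a black line at each list median. List medians lie between -0.07 and 0.06, and that of the 10 microglia and C1q genes is 0.04.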

How the data were processed

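Bulk RNA sequencing of the micro-dissected dentate gyrus gave 10 libraries, each titled as 1 mouse. Trizol and Qiagen columns were used for the RNA, per the labels' protocols. Each stranded mRNA library took 500 ng, and reads were single-end with 75 bases. The deposited values are raw counts, 1 row per gene symbol, not normalized by the authors. STAR 2.5.1b, Cufflinks 2.2.1 and the build mm10 are named in the submitters' processing notes with no role or order, and the strand setting of the counting is not given in the sources used here.

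Totals ranged from 26226375 to 43802079 counts per library, and every pair of libraries of 1 genotype differed by more than sampling noise (chi-square per degree of freedom at least 4.63). The titles number the mice of each genotype. The descriptions give all 10 libraries the same date and code, with sample numbers that alternate the genotypes, and no label gives a litter or a day of dissection. Counts were filtered with filterByExpr, scaled by TMM and fitted with edgeR 4.0.16 (glmQLFit and glmQLFTest, genotype alone, R 4.3.3), with Benjamini-Hochberg adjustment over 14867 genes and a threshold of 0.05. Standard errors were derived from the F statistics, and intervals are 95% intervals. A two-sided exact permutation test over 252 assignments was added for single values, and there the smallest p is 0.00794. Steps were tested on simulated counts. Correlations used log2 CPM (prior count 2) less the genotype mean, with 100000 permutations over all libraries, not within genotype. Levels per kb used the longest principal transcript in GENCODE M21 (GRCm38).

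Alternatives were DESeq2 1.42.0, limma-voom (limma 3.58.1), upper-quartile scaling, other low-count filters, the mouse number as a block and each library left out. The rule for named genes took all members, Fndc5, up to 3 tested genes per list with the smallest p, list genes past the threshold, and the 8 genes most like the members' mean profile (mean of at least 1 CPM; predicted genes and pseudogenes passed over). Any further gene was picked with its values in view. Some genes of the lists are counted but not reported here by name. The members and gene lists were chosen with earlier results of these data known.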

Additional observations from a re-analysis of the deposited data

Results flagged for a closer look

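A library far from the others of its genotype was found in 8 of 64 groups of 5 values, where chance gives about 3.2. Of these, 4 belonged to WT mouse 5. It was the highest WT library for C1qa (35.6 CPM, the others 25.1 to 26.8), for the summed C1q level (97.6 CPM, the others 75.5 to 80.5), for the share of C1qa in the C1q sum (38.8%, the others 34.3% to 35.6%) and for Csf1r (83.4 CPM, the others 74.2 to 75.8). KO mouse 3 was the lowest KO library for Cx3cr1 (39.7 CPM, the others 47.5 to 49.4) and for P2ry12 (22.7 CPM, the others 25.9 to 26.8). KO mouse 1 was the highest KO library for Tmem119 (17.2 CPM, the others 15.4 to 15.5). The summed granule neuron markers were lowest in WT mouse 1 (1940 CPM, the other WT libraries 2154 to 2228). The C1q values share the same reads and are not separate findings.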

How the results depend on the processing

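The count of microglia and C1q genes past the threshold was 0 of 10 in all 16 alternatives, with a lowest adjusted p of 0.563. Of 160 fold changes under these alternatives, 153 had the direction given above. The other 7 were all of C1qc, whose log2 fold change of -0.00040 became 0.0076 with limma-voom, 0.0092 with upper-quartile scaling and 0.0027 under the replicate block. Its lowest and highest values on leaving out 1 library were -0.039 and 0.067. The median of the 10 genes ranged from 0.03 to 0.09 with single libraries left out, highest without WT mouse 5. The number of genes past the threshold over the whole table was 1, 3 with DESeq2, 8 under the replicate block, and from 1 to 3 on leaving out 1 library (3 without WT mouse 1, 2 without KO mouse 2); the cause was not tested. Fndc5 stayed past it throughout. Same-numbered mice correlated at 0.209, 0.204, 0.108, 0.00901 and 0.0282, 3 of the 5 above 0.1. Mice 1 and 2 of each genotype were mutual best matches, while KO mice 4 and 5 and WT mice 3 and 4 were closest to a mouse of another number. As not every pair was above 0.1, the block was kept as an alternative, and whether same-numbered mice share handling was not tested. None of 191 list medians moved by more than 1 SD, but on leaving out 1 library every list median took both signs except that of the complement regulators (-0.050 to -0.0087); the border-associated list had under 3 genes with a filter of 1 CPM in 5 libraries. Depth limits Trem2, Tyrobp and Cd68, where counting alone gives a coefficient of variation of over 7%.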
